A study of Mus musculus with 60 samples.

Results

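The genes described here are 58 developmental homeobox genes that lie outside the Hox clusters, in 13 families, together with their near relatives of the Pax family. They were chosen by name: a peak belonged to the set when the gene symbol given to it by the authors was 1 of the 58. All 58 were found among 21853 protein-coding genes, and 1947 of the 256375 peaks in the data were assigned to them. The peaks come from CUT&RUN-seq, in which an antibody directs a nuclease to cut out the DNA around a histone modification. H3K27me3, the trimethylation of histone H3 at lysine 27, is laid down by Polycomb repressive complex and marks silenced genes, and H4K8ac, an acetylation of histone H4, is found at active promoters and enhancers.

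The nuclei came from the hippocampus of male Emx1-NuTRAP mice, offspring of female Emx1-IRES-Cre knock-in mice and male NuTRAP mice. Cre under the Emx1 locus switches on tags for nuclei and ribosomes in the Emx1 lineage, which is mostly excitatory neurons but includes neural progenitors, so every group carried both alleles and Emx1 itself carried the Cre insertion. Between postnatal days 21 and 41, exercised mice could use a running wheel and sedentary mice could not. Nuclei were isolated along with RNA from the pooled hippocampi of a mouse (simultaneous isolation, SIT), or by themselves from 1 hippocampus, left (called left separate) or right (called right separate), and these 3 isolations are called arms below. Of 60 samples in 18 groups of 3 or 4, 20 were IgG controls and are not analysed here. The remaining 40 were of the 2 marks, for which there are 12 peak lists, 1 for each mark, condition and arm. The authors left some exercised H4K8ac libraries of SIT and of the separate isolations out, so fewer libraries than samples can stand behind a list. A list gives positions, widths and assigned genes, without signal heights or library names, so each list is 1 pooled value without an SD, and its read depth cannot be read from it. H3K27me3 lists held 9899 to 25693 peaks over 41.2 to 135.6 Mb, and the exercised right separate list was the shortest. H4K8ac lists held 12168 to 38136 peaks over 24.5 to 80.3 Mb.

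Homeobox genes encode transcription factors that bind DNA through the homeodomain and set the identity of regions and cell types in the embryo. Pax1 and Pax9 belong to the set as Pax genes, although their proteins bind DNA through the paired domain. In differentiated cells, those that specify other tissues are classic Polycomb targets, covered by wide H3K27me3 domains. In the forebrain, Emx1, Emx2 and Lhx2 pattern the dorsal telencephalon from which the hippocampus grows, and Dlx1, Dlx2, Dlx5, Dlx6, Nkx2-1, Gsx2, Lhx6 and Lhx8 act in the ventral telencephalon that gives rise to inhibitory neurons.

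The nuclei were checked against markers of cell types. The start site lay inside an H4K8ac peak for 1 to 4 of 10 excitatory neuron markers and for 0 of 7 inhibitory neuron markers, over the 6 lists. H3K27me3 covered the start sites of 0 of 10 excitatory markers in every list, and of 3 to 6 of 7 inhibitory markers. Of 6 astrocyte markers 2 or 3, of 6 oligodendrocyte markers 1 to 3, of 6 microglia markers 1 or 2, and of 5 endothelial markers 2 had their start site in an H3K27me3 peak. In H4K8ac lists each of these non-neuronal lists had 0 or 1. Over all genes, 5.06 to 10.4% of start sites were inside H3K27me3 and 4.75 to 18.7% inside H4K8ac, so counts of 0 or 1 in lists this short lie near the share of all genes.

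The DNA just before the start site is shown for 6 genes on which the results turn, the 4 that carried H4K8ac within 5 kb of their start (Emx1, Emx2, Lhx2 and Lhx9) and 2 whose start lay in an H3K27me3 peak in 6 lists (Nkx2-1) or 5 (Dlx2). Each run is the 250 bases before the main start site in GENCODE M21, read from GRCm38.p6, 5′ to 3′ on the strand of the gene, with CG dinucleotides in capitals. Emx1 lies on the plus strand at chr6:85187188-85187437, Emx2 on the plus strand at chr19:59458122-59458371, Lhx2 on the plus strand at chr2:38350509-38350758 and Lhx9 on the minus strand at chr1:138842458-138842707. Nkx2-1 lies on the minus strand at chr12:56536909-56537158 and Dlx2 on the minus strand at chr2:71546755-71547004. None of these windows overlaps an annotated UTR.
Emx1: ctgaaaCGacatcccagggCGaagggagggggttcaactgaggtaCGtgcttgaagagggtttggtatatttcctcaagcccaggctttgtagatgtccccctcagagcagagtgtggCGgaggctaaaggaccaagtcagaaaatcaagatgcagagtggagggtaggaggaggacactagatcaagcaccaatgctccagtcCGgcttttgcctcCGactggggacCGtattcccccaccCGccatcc
Emx2: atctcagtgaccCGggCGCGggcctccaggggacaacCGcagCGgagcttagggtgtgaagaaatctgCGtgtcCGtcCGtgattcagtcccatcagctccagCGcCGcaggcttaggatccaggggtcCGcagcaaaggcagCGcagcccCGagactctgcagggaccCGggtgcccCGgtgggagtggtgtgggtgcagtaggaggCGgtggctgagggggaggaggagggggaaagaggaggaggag
Lhx2: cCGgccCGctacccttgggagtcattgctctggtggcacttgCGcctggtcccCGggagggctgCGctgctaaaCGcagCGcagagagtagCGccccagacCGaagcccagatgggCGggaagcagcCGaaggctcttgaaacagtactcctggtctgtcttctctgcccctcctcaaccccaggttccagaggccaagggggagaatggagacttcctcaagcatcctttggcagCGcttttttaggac
Lhx9: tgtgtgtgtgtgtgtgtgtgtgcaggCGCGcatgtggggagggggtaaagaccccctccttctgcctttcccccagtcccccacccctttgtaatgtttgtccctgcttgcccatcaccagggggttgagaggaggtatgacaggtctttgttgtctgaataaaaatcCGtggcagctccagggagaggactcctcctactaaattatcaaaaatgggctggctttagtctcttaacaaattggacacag
Nkx2-1: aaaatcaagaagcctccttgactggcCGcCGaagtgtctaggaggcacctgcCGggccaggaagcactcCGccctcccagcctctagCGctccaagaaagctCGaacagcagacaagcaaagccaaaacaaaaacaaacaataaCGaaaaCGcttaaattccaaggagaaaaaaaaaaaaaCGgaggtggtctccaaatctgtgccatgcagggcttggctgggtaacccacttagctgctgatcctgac
Dlx2: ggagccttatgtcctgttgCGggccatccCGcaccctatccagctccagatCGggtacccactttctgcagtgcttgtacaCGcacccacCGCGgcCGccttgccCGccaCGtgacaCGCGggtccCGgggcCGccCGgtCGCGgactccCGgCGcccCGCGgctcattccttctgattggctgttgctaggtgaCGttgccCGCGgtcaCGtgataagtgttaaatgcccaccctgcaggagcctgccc

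CG dinucleotides were counted because Polycomb domains form over unmethylated CG-rich DNA. The window held 8 in Emx1, 16 in Emx2, 12 in Lhx2, 3 in Lhx9, 9 in Nkx2-1 and 24 in Dlx2. Over the 58 genes the median was 14.5 (range 3 to 39), against 9 over all genes, and 41 of 58 windows (70.7%) held at least 10, against 48.7% of all windows. In the sedentary SIT list, 38 of those 41 start sites lay inside an H3K27me3 peak, against 7.80% of the 10643 genes with as many CG dinucleotides. Of the 17 homeobox genes below 10, 14 were inside, against 6.78% of the 11210 genes below 10. The letters TAATTA, a core homeodomain site that reads the same on both strands, were in 0 of the 58 windows and in 4.72% of all windows.

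H3K27me3 covered the start sites of most homeobox genes in every list. In SIT, 52 of the 58 start sites lay inside a peak in exercised mice, where 10.4% of all genes did, and 52 in sedentary mice, where 7.28% did. For left separate 52 were inside in exercised mice (8.13% of all genes) and 49 in sedentary mice (7.44%). For right separate 41 were inside in exercised mice (5.06%) and 55 in sedentary mice (9.89%). The exercised right separate list is the low one, and the other 5 lists differ by at most 6 genes. Start sites of 39 genes were inside in 6 of 6 lists, of 12 in 5, of Barhl2 in 4, of Lhx9, Meis2 and Onecut2 in 1, and of Emx1, Emx2 and Lhx2 in none.

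The share of bases covered within 5 kb of the start site, in both directions, was used as a graded measure. Its median over the 58 genes was 100% in 5 lists and 89.0% in the exercised right separate list. Its mean ran from 78.6 to 92.6%, against 3.90 to 8.46% over all genes, and 16 genes were covered in full in 6 of 6 lists.

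**Figure D1:**
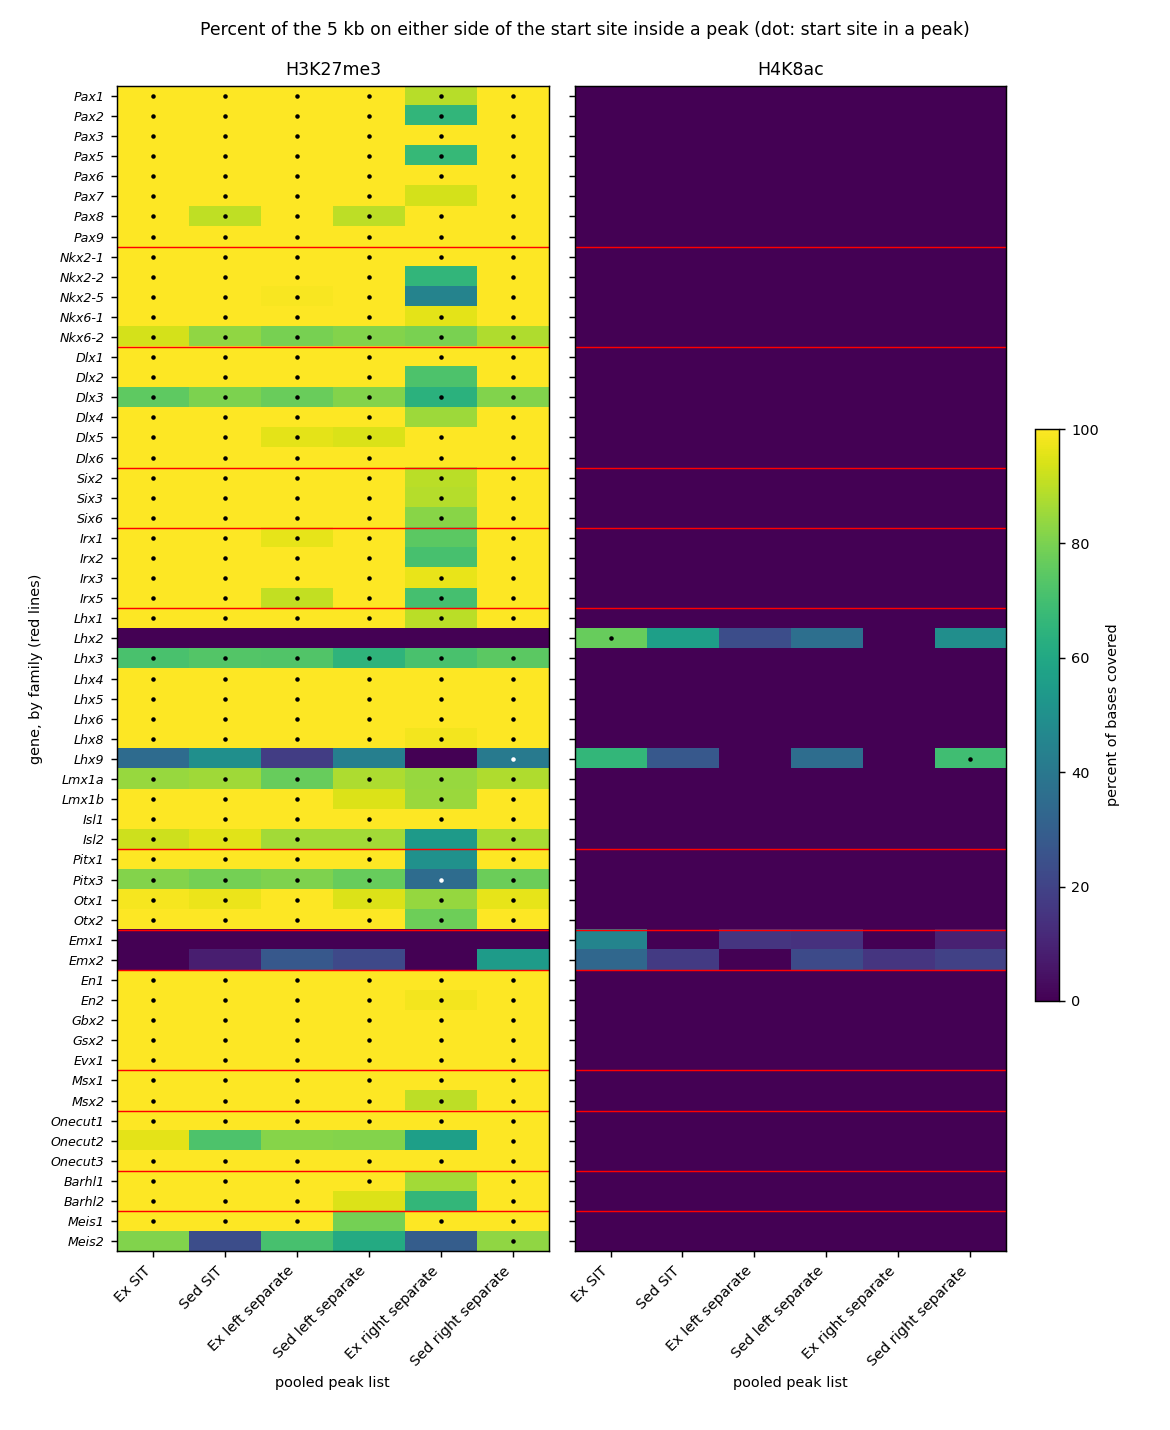
Percent of bases within 5 kb of each start site covered by H3K27me3 (left) and H4K8ac (right) peaks, for 58 genes (rows, red lines between families) in the 6 lists of each mark (columns, Ex for exercised and Sed for sedentary), with a dot where the start site is inside a peak. H3K27me3 fills nearly all rows but Emx1, Emx2, Lhx2, Lhx9 and Meis2, with lower values in the exercised right separate column, and H4K8ac is above 0 in 4 rows.

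In the Pax family, whose members specify somites, kidney, eye, B cells and neural crest, 7 of 8 start sites were inside an H3K27me3 peak in 6 of 6 lists. The lowest mean cover was at Pax2, a kidney and midbrain-hindbrain regulator (94.3%), and the highest at Pax3, Pax6 and Pax9 (100% each). Pax7, a regulator of muscle stem cells, was outside only in the exercised right separate list, where a peak began 68 bp away. Pax6, which acts in cortical progenitors as well as in the eye, was covered in full in every list.

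Nkx genes showed the same cover, with 28 of 30 combinations of gene and list inside a peak. Nkx2-1, which specifies ventral forebrain, lung and thyroid, had a mean of 100%, and Nkx6-2, a regulator of neural tube and oligodendrocyte development, the lowest mean at 84.4%. The 2 misses were Nkx2-2 and the cardiac regulator Nkx2-5 in the exercised right separate list.

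In the Dlx family 34 of 36 combinations were inside, with a mean cover of 76.5% at Dlx3, a regulator of skin and placenta, and 100% at Dlx6. Six2, Six3 and Six6, regulators of kidney, forebrain and eye, were inside in 18 of 18 combinations, with means from 97.1% (Six6) to 98.3% (Six2). The 4 Irx genes were inside in 22 of 24, from 93.6% (Irx5) to 99.4% (Irx3). En1, En2, Gbx2, Gsx2 and Evx1, which pattern midbrain, hindbrain, ventral forebrain and spinal cord, were inside in 30 of 30, and Msx1 and Msx2, craniofacial regulators, in 12 of 12.

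In the LIM homeobox family 59 of 72 combinations were inside. Cover ran from a mean of 0% at Lhx2 to 100% at Lhx4, Lhx5, Lhx6 and Isl1, the last a regulator of motor neurons and heart. Lhx1, Lhx3, Lhx4, Lhx5, Lhx6, Lhx8, Lmx1a and Isl1 were inside in 6 of 6 lists. Lmx1b, which acts in dopamine and serotonin neurons and in limb, was outside in the sedentary left separate list, where the nearest peak was 135 bp away. Isl2 was outside in the exercised right separate list.

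Pitx and Otx genes were inside in 23 of 24 combinations, with mean cover from 71.8% at Pitx3, a dopamine neuron and lens regulator, to 96.3% at Otx2. Onecut genes were inside in 13 of 18, and the lowest mean was at Onecut2 (81.3%) and the highest at Onecut1 and Onecut3 (100% each). Barhl1 and Barhl2 were inside in 9 of 12. The Meis genes, cofactors of Hox proteins that remain in use in some adult neurons, were inside in 6 of 12, with means of 96.5% at Meis1 and 58.4% at Meis2.

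The genes that fell outside H3K27me3 did so in different ways. Emx1 had 0% cover in 6 of 6 lists, and its nearest H3K27me3 peak lay 20.2 to 21.2 kb upstream in 5 lists and 58.6 kb away in the sedentary SIT list. Lhx2, required for hippocampal formation, also had 0% in 6 of 6 lists, and its nearest peak was 60.1 kb away in the exercised SIT list and 317.3 to 345.7 kb away in the others.

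Emx2, a regulator of cortical and hippocampal size, was partly covered. The values were 0% exercised and 8.50% sedentary in SIT, 27.5 and 22.1% for left separate, and 0 and 54.9% for right separate. The order of exercised and sedentary mice thus differed between arms, and its start site itself was never inside.

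Lhx9, a LIM gene of forebrain and gonad, had 34.8% exercised and 49.7% sedentary in SIT, 18.2 and 43.3% for left separate, and 0 and 40.8% for right separate. The sedentary list was higher in 3 of 3 arms. Dlx3 (75.1 and 80.2%, 77.2 and 81.4%, 63.8 and 81.1%) and Lmx1a (84.6 and 85.6%, 76.9 and 87.5%, 84.7 and 88.1%, in the same order) went the same way, and these 3 genes were singled out after their values were seen. Of all genes, 0.943% were lower in exercised mice in all arms and 0.265% were higher. Only 5.06 to 10.4% of all genes had their start in an H3K27me3 peak. Most thus had little cover to lose, and these shares are not a like base for the 58. No homeobox gene was higher in all arms.

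Meis2, a regulator of striatal neuron development, had 81.2% exercised and 23.6% sedentary in SIT, 71.0 and 61.2% for left separate, and 29.7 and 83.5% for right separate, so the order turned in the last arm. Its start site lay inside a peak only in the sedentary right separate list. In the other 5 lists the nearest peak was 80 to 3692 bp away. In the exercised right separate list all cover within 5 kb came from a downstream peak, and in the rest of these lists peaks lay on both sides of the start. Onecut2, which acts in liver, pancreas and neurons, had 56.6 to 100% cover and was inside only in the sedentary right separate list as well.

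**Figure D2:**
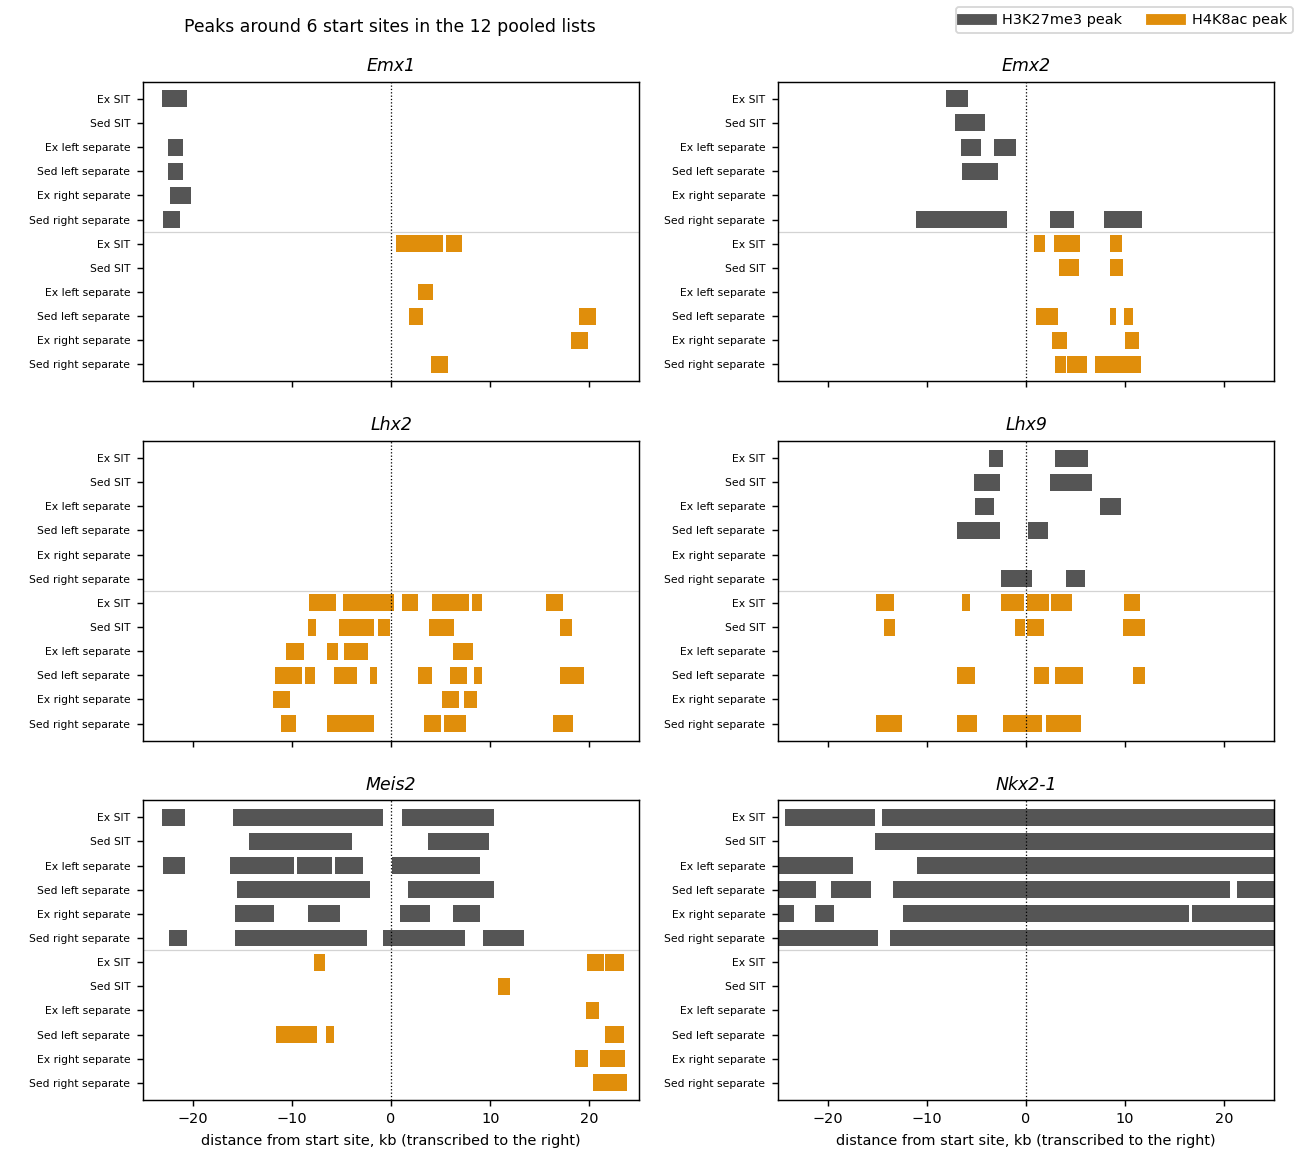
H3K27me3 peaks (grey) and H4K8ac peaks (orange) within 25 kb of the start sites of Emx1, Emx2, Lhx2, Lhx9, Meis2 and Nkx2-1, with distance in kb on the x axis, transcription to the right, and 1 row for each of the 12 pooled lists. H4K8ac lies downstream of the start at Emx1 and Emx2 and on both sides at Lhx2 and Lhx9, while Nkx2-1 is covered by H3K27me3 alone.

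H4K8ac was found at few start sites of these genes. The start site of Lhx2 was inside an H4K8ac peak in exercised SIT mice, where 18.7% of all genes were, and that of Lhx9 in sedentary right separate mice, where 11.2% were. The part of the left-out exercised libraries in these values was not tested. None was inside in the sedentary SIT list (7.58% of all genes), in the exercised and sedentary left separate lists (4.75 and 12.8%) or in the exercised right separate list (5.94%). These zeros say only that no peak was called. When the start of any protein-coding transcript counted, 3 genes were inside an H4K8ac peak in exercised and 0 in sedentary SIT mice (21.6 and 9.48% of all genes). The counts were 1 and 3 for left separate (6.11 and 15.7%), and 1 and 2 for right separate (7.52 and 13.5%). These genes were Lhx2, Lhx9 and Emx2. Annotated starts of other transcripts were not counted. Within 5 kb of the start, H4K8ac peaks were found at Emx1, Emx2, Lhx2 and Lhx9 and at 0 of the other 54 genes in each of the 6 lists. By list these were 4 genes exercised and 3 sedentary in SIT (30 and 17.4% of all genes), 2 and 4 for left separate (10.1 and 27.4%), and 1 and 4 for right separate (12.3 and 20.1%).

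At Lhx2 the covered share within 5 kb was 76.9% exercised and 56.3% sedentary in SIT, 23.8 and 36.7% for left separate, and 0 and 49.6% for right separate. At Lhx9 it was 66.2 and 27.6% in SIT, 0 and 35.6% for left separate, and 0 and 69.5% for right separate. Both genes were higher in exercised mice in SIT and lower in the separate arms.

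At Emx1 the values were 45.2 and 0% in SIT, 15.3 and 14.4% for left separate, and 0 and 9.22% for right separate. At Emx2 they were 33.5 and 17.2%, 0 and 22.3%, and 15.4 and 19.3%. The exercised SIT list was the highest of the 6 at Emx1, Emx2 and Lhx2, and it was also the list with the most H4K8ac peaks. None of the 58 genes moved one way in all arms, where 1.84% of all genes were lower in exercised mice in every arm and 0.718% higher. Of the 58, 54 had no H4K8ac within 5 kb in any list and could not move.

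Near the start site, peaks of the 2 marks came together at Lhx9 and Emx2 alone among the 58 genes. Both marks lay within 5 kb of the start site at Lhx9 in exercised SIT mice, at Lhx9 and Emx2 in each of the 3 sedentary lists, and at no homeobox gene in the exercised separate lists. Over all genes this share was 0.444 to 2.19%. Of 164 H4K8ac peaks assigned to the set, 12 (7.32%) shared bases with H3K27me3 in the matching list, against 0.378% of all H4K8ac peaks, and 9 of the 12 belonged to Lhx9 and Emx2. Since a list pools nuclei of several mice, both marks on 1 nucleosome, in different cells, and on different alleles cannot be told apart.

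The H4K8ac peaks assigned to these genes lay at very different distances. Of 164 peaks, 55 (33.5%) were annotated as promoter, against 23.5% of all H4K8ac peaks. All of the 55 belonged to Emx1, Emx2, Lhx2, Lhx9, Meis2 and Pax6, so the share does not describe most of the genes with a peak. A region present in several lists also counts once for each list. The 164 peaks belonged to 22 genes and formed 56 regions after merging over lists, of which 23 were in 1 list and 10 in at least 5. Emx1, Emx2, Lhx2 and Lhx9 held 74 of the peaks (45.1%), at a median of 5.44 kb from the start, and all 33 peaks within 5 kb of a start were theirs. The peaks of the other genes lay at a median of 77.5 kb, the nearest at 10.8 kb, inside Meis2.

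Lhx2 held the most, 33 peaks over the 6 lists. Its main cluster spanned chr2:38342085-38351102, reaching the start site, with peaks in 5 lists, and a second region at chr2:38353501-38359948, 2.74 kb downstream, had peaks in 6 of 6. Emx1 had a region at chr6:85187919-85194626 that began 0.481 kb downstream of the start and was present in 4 lists, and an intronic region 29.8 kb downstream, at chr6:85217254-85220747, in 5. That second region lies beyond the annotated end of Emx1. Emx2 had a region at chr19:59459167-59464499 in 5 lists, and Lhx9 one at chr1:138836723-138844934 in 4.

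Of the distal regions, an intergenic one at chr2:71627128-71630719, 80.4 kb upstream of Dlx2, was present in 6 of 6 lists, although the start site of Dlx2 was in H3K27me3 in 5. An intronic region 162.0 kb downstream of Irx3, at chr8:91637268-91639927, was in 5 lists and outside Irx3 itself. Pax1 had an intergenic region 88.3 kb downstream in 5 lists, Lmx1b an intronic one at 58.4 kb in 5, and Isl1 an intergenic one at 94.5 kb in 4. Meis2 had a region 18.6 kb into the gene, at chr2:116041298-116046484, which was annotated as a promoter and was present in 5 lists. Assignment to the nearest gene is how these peaks received their symbols, and a link to that gene was not tested.

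**Figure D3:**
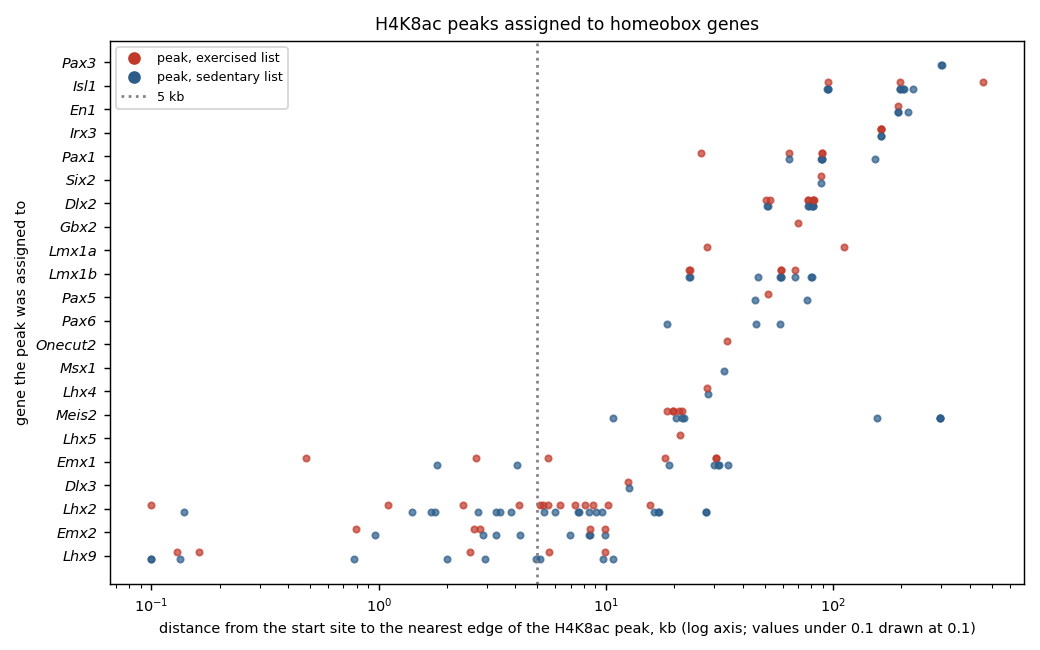
Distance in kb, on a log axis, from the start site to the near edge of each H4K8ac peak (points, by condition of the list) for the 22 genes with an assigned peak, ordered by median distance. Points left of the dotted line at 5 kb belong to Emx1, Emx2, Lhx2 and Lhx9, and those of the other genes lie at 10.8 kb or more.

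Regulators of the inhibitory and excitatory lineages were counted separately. Of 10 inhibitory lineage genes (Dlx1, Dlx2, Dlx5, Dlx6, Lhx6, Lhx8, Nkx2-1, Gsx2, Isl1 and Meis2), 8 to 10 had their start site in an H3K27me3 peak, and 0 in an H4K8ac peak in any list. Over all genes these shares were 5.06 to 10.4% for H3K27me3 and 4.75 to 18.7% for H4K8ac, so that 0 of 10 lies near the H4K8ac share. Of 8 excitatory lineage genes (Emx1, Emx2, Lhx2, Lhx9, Otx1, Pax6, Meis1 and Meis2), 2 to 5 were in an H3K27me3 peak and 0 or 1 in an H4K8ac peak, again near the share of all genes for H4K8ac. Otx1 and Pax6, which act in cortical progenitors, were inside H3K27me3 in 6 of 6 lists and Meis1 in 5. Of 74 other developmental homeobox genes, 51 to 66 were inside H3K27me3 and 1 or 2 inside H4K8ac, and of 31 broadly expressed homeobox genes 3 to 9 and 1 to 6.

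The H3K27me3 peaks over the start sites were wide. Their median width ran from 32.2 to 37.0 kb in 5 lists and was 16.4 kb in the exercised right separate list, against 4.84 to 6.67 kb over all genes whose start lay in a peak. In the sedentary SIT list 44 of 52 were at least 20 kb wide, where 18.3% of such peaks over all genes were. The 5 widest were at Pax3 (122.2 kb in the sedentary right separate list and 117.9 kb in the sedentary SIT list) and Nkx2-1 (121.5 kb exercised and 118.0 kb sedentary in SIT, and 114.7 kb sedentary for right separate). Pax3 specifies neural crest and muscle. The Pax3 peak of 122.2 kb spanned chr1:78102438-78224614 and the Nkx2-1 peak of 121.5 kb chr12:56429935-56551429.

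Some domains had nearly the same width in every list. The domain of Lhx4, a pituitary and motor neuron regulator, measured 28.05 to 29.36 kb, that of Pax9 52.3 to 56.2 kb, that of Isl1 29.9 to 32.4 kb and that of En1 38.1 to 42.1 kb, over 6 lists. Others varied, with the widest peak 11.8 times the narrowest at Six6 (6.52 to 77.1 kb), 10.6 times at Pax2 (4.64 to 49.1 kb) and 7.32 times at Pitx3 (3.54 to 25.9 kb). In each of these 3 genes the narrowest peak was that of the exercised right separate list.

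**Figure D4:**
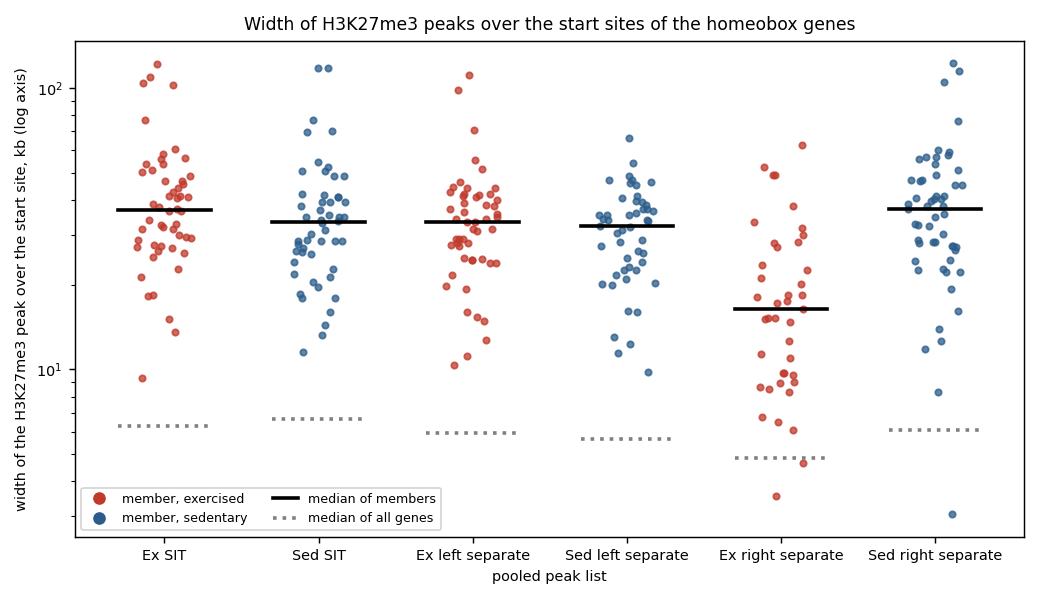
Width in kb, on a log axis, of the H3K27me3 peak over each homeobox start site inside a peak (points), in the 6 pooled lists, with the median of these genes (black line) and the median over all genes (grey dotted line). The homeobox medians lie above those of all genes in every list and drop to 16.4 kb in the exercised right separate list.

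Exercised and sedentary lists were then compared arm by arm, to ask whether exercise went with a change at these genes. In SIT, the peak over the start site was wider in exercised mice at 44 genes and narrower at 8 of 52, with a median ratio of 1.07. Over all genes 25.7% were narrower and the median ratio was 1.15. For left separate 29 were wider and 20 narrower of 49, with a median ratio of 1.03, where 41.4% of all genes were narrower. For right separate 41 of 41 were narrower, with a median ratio of 0.514, where 93.9% of all genes were narrower with a median ratio of 0.579. The homeobox genes thus went with the whole list in each arm. Dlx5 and Dlx6 shared a peak in every list, and Dlx1 and Dlx2 in every list but the exercised right separate. A shared peak counted for both genes, so the 52 start sites of each SIT list lay in 50 distinct peaks.

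For right separate 14 homeobox start sites were inside a peak in sedentary mice alone and 0 in exercised mice alone, where over all genes 4.99% and 0.156% were. Of the start sites inside in sedentary mice, 14 of 55 homeobox ones (25.5%) were thus outside in exercised mice, against 50.4% over all genes. The 14 were Barhl1, Barhl2, Dlx2, Dlx4, Irx1, Irx2, Isl2, Lhx9, Meis2, Nkx2-2, Nkx2-5, Onecut2, Pax7 and Pitx1. In the exercised list 17 start sites were outside, and 51 of the 58 genes had a peak within 1 kb, where 6.37% of all genes did. For Pitx1, a hindlimb regulator, the nearest peak was 34 bp away and the cover 50.7%, and for Barhl2 1585 bp and 66.4%. Apart from Lhx9, whose nearest peak was 54.1 kb away, these loci still held H3K27me3 peaks within 2 kb of the start.

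For left separate 3 start sites were inside in exercised mice alone (Barhl2, Lmx1b and Meis1) and 0 in sedentary mice alone, where 1.73% and 1.04% of all genes were. Their sedentary peaks lay 16, 135 and 717 bp from the start. In SIT the same 52 were inside in both conditions, with 0 changes either way, where 3.4% of all genes were inside in exercised mice alone and 0.247% in sedentary mice alone.

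**Figure D5:**
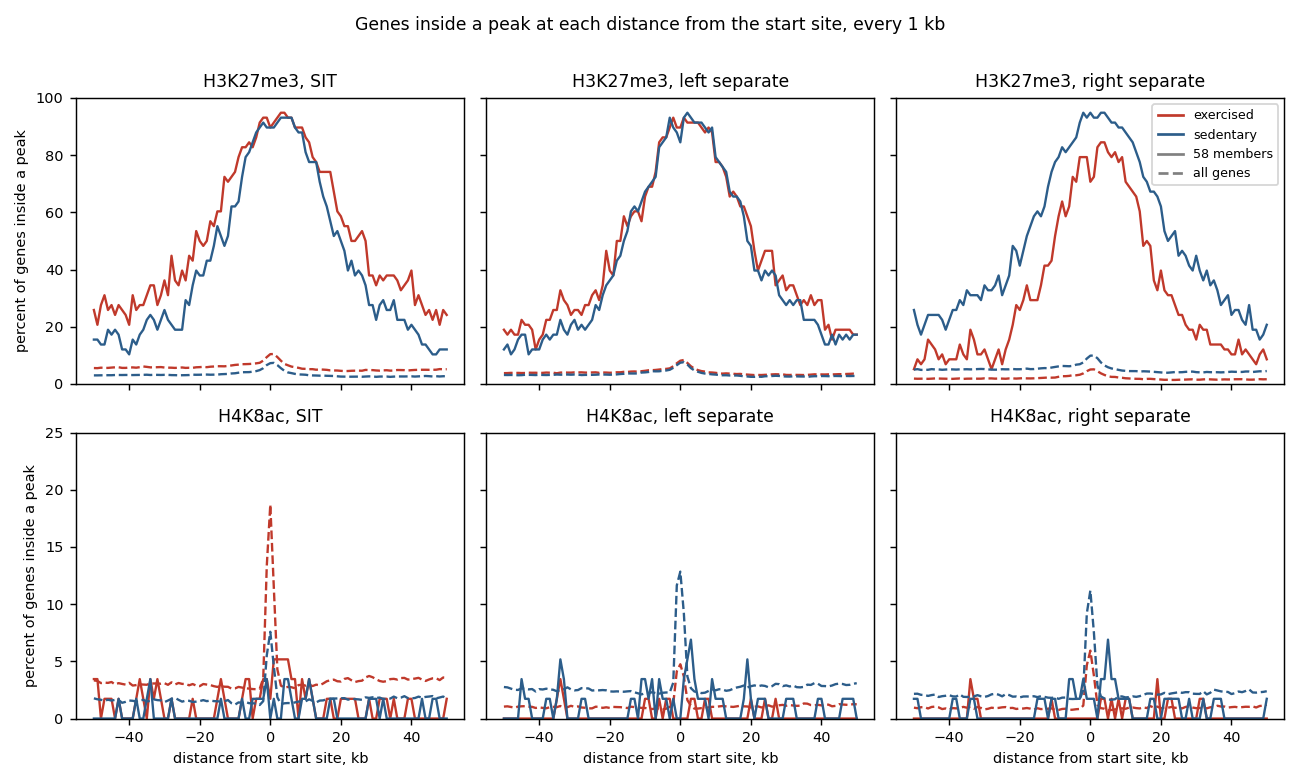
Percent of the 58 homeobox genes (solid lines) and of all genes (dashed lines) inside a peak at each 1 kb step from 50 kb upstream to 50 kb downstream of the start site, by mark (rows, with different y axes) and arm (columns), in exercised (red) and sedentary (blue) lists. H3K27me3 at the homeobox genes falls off gradually on either side, and the gap between conditions at the start site is widest for right separate (70.7% exercised and 94.8% sedentary), against 89.7% exercised and 84.5% sedentary for left separate and none in SIT.

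Over the 3 arms, the number of start sites inside an H3K27me3 peak was lower in exercised mice by a mean of −3.67 ± 9.07 (SD, n = 3 arms), less than the spread between arms (exact two-sided sign-flip permutation test, p = 1, adjusted p = 1 over 6 tests). The covered share differed by −4.17 ± 8.59 percentage points (p = 1, same exact permutation test, adjusted p = 1). Its differences were 1.23 in SIT, 0.338 for left separate and −14.1 for right separate, so that the mean rests on the last. With 3 arms the smallest p this test can give is 0.25. For H4K8ac, start sites inside a peak differed by 0 ± 1 (exact permutation p = 1) and the covered share by −0.467 ± 2.27 percentage points (p = 0.75, same exact permutation test), with adjusted p = 1 for both.

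Genes were also counted by the symbol assigned to each peak. The homeobox genes listed for H3K27me3 were 53 exercised and 49 sedentary in SIT, 51 and 50 for left separate, and 54 and 51 for right separate, a mean difference of 2.67 ± 1.53 (SD, n = 3 arms). More homeobox genes were listed in exercised mice in 3 of 3 arms (exact sign-flip permutation p = 0.25, adjusted p = 1). In SIT 4 genes were listed in exercised mice alone (10.3% of all genes) and 0 in sedentary mice alone (0.243%). For left separate the numbers were 1 (4.03%) and 0 (2%), and for right separate 4 (0.677%) and 1 (10.4%).

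Onecut1, a liver and pancreas regulator, was the gene listed in exercised mice alone in 3 of 3 arms. Its start site was inside an H3K27me3 peak, with 100% cover, in 6 of 6 lists. In 4 lists, the 3 sedentary and the exercised left separate, that peak had been given to the neighbouring Gm16551. The listing thus changed while cover at the start stayed at 100%. In the same way Dlx1, Pax6 and Pitx3 were listed in 1 list alone, the exercised right separate list in each case, although each was inside a peak in 6 of 6. Nkx2-2 and Dlx6 were listed in none, and were inside in 5 and 6 lists. The peaks over these starts were given to Dlx1as, Paupar, Elovl3, Nkx2-2os and Dlx5. Between 4 and 10 of the start sites in a list lay in a peak that bore the symbol of a neighbour, fewest in the exercised right separate list.

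For H4K8ac, 19 homeobox genes were listed in exercised and 15 in sedentary SIT mice, 7 and 15 for left separate, and 8 and 11 for right separate. The mean difference was −2.33 ± 6.03 (SD, n = 3 arms, exact sign-flip permutation p = 0.75, adjusted p = 1). In SIT 6 were listed in exercised mice alone (12.9% of all genes) and 2 in sedentary mice alone (4.54%), for left separate 0 (1.46%) and 8 (21.3%), and for right separate 1 (3.25%) and 4 (12.8%). The direction followed the length of the lists in each arm. Genes listed for both marks numbered 19 exercised and 12 sedentary in SIT (10.9 and 4.99% of all genes), 5 and 12 for left separate (3.61 and 7.21%), and 6 and 10 for right separate (2.95 and 7.64%). Pax5, a B cell regulator, was among them in both SIT lists and the sedentary left separate list.

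The lists of different arms were compared with each other over windows of 20 kb up- and downstream of the start sites. The Jaccard index of covered bases (shared over combined) for H3K27me3 in sedentary mice was 0.901 for SIT against left separate, 0.890 for SIT against right separate and 0.898 for left against right, where it was 0.521 to 0.569 over the genome. In exercised mice it was 0.900 between SIT and left separate, but 0.754 and 0.783 for the right separate list against these, with 0.287 to 0.534 over the genome. Exercised and sedentary lists of 1 arm had 0.889 in SIT, 0.902 for left separate and 0.749 for right separate. Over the genome these pairs had 0.330 to 0.536, and between arms the windows had 0.754 to 0.901. H3K27me3 covered 58.7 to 77.9% of the bases of these windows. Such dense cover raises the index by itself, so the windows and the genome are not compared like with like. For H4K8ac the index over the same windows was 0.0870 to 0.350, around the 0.189 to 0.306 over the genome.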

How the data were processed

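CUT&RUN-seq peaks of H3K27me3 and H4K8ac in 12 pooled lists were analysed. The authors aligned reads with Bowtie2 2.4.1 after FastQC 0.11.9, used the stringent mode of SEACR to call peaks, and annotated each to the nearest gene with ChIPseeker 1.8.6 on mm10 (tools and versions per the labels). Peaks annotated as promoter lay within 3 kb of a start site. The deposited tables give start, end, width and distance in bp, and no counts, signal or p-value. How libraries were combined is not given in the sources used here, and some exercised H4K8ac libraries were left out by the authors.

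All 117 transcripts assigned to peaks of the 58 genes had the same start and end in GENCODE M21. The main start site was the most upstream start among the best-ranked APPRIS transcripts. A gene was listed if a peak carried its symbol. Start sites inside a peak, and covered bases within 5 kb, were computed for 21853 protein-coding genes whatever symbol a peak bore. Differences between exercised and sedentary lists were tested over 3 arms by flipping signs exactly (two-sided permutation test), with Benjamini-Hochberg adjustment over 6 tests. Each list counts as 1 value, so a p-value sets the mean difference against its sign-flipped values over 3 arms. The SD gives the spread between arms.

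Genes were named if they had the highest or lowest H3K27me3 cover of their family, an H4K8ac peak over the start or in at least 4 of 6 lists, a listing changed one way in 3 of 3 arms, 1 of the 5 widest peaks, both marks listed, or a place in the excitatory or inhibitory lineage lists. Other members were named as exceptions after their values were seen. The members and lists were chosen with earlier results of these data known. Interval functions and the permutation test were tested on simulated data. Alternatives were other peak classes, equal numbers of peaks by width, the widest 50% of each list, other start sites, windows of 2 and 10 kb, and leaving out each arm. IgG samples were not used. Analyses used scipy 1.17.1 and statsmodels 0.14.6 for tests, pandas 2.3.3 and numpy 2.4.6 for tables, and matplotlib 3.10.9 for plots, in Python 3.11.15.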

Additional observations from a re-analysis of the deposited data

Results flagged for a closer look

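For 5 of the 6 measures, the difference between exercised and sedentary mice had opposite directions in different arms, and with 1 list per condition and arm these differences between arms were not tested. Homeobox start sites inside an H3K27me3 peak differed by 0 in SIT, 3 for left separate and −14 for right separate. Their H3K27me3 cover differed by 1.23, 0.338 and −14.1 percentage points in the same order. For H4K8ac, listed genes differed by 4, −8 and −3, start sites inside a peak by 1, 0 and −1, and cover by 2.08, −1.20 and −2.28 percentage points. The exercised right separate list, with the lowest H3K27me3 values, was also the shortest and the least covered of the 6 (9899 peaks, 41.2 Mb), and the part of its length in these values was not tested.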

How the results depend on the processing

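No paired analysis was possible because each list pools the libraries of its group and carries no replicate numbers. Over the 6 differences between exercised and sedentary mice, 31 of 38 alternatives kept the direction, and 15 of these 31 moved the value by over 1.5 times. The 31 include 3 for the H4K8ac difference in start sites, which was 0, without a direction, and stayed at 0. No p passed a threshold in any alternative, as 3 arms allow no p below 0.25 and 2 arms none below 0.5. Over all alternatives, listed genes differed by 1.67 to 3.5 for H3K27me3 and by −5.5 to 0.5 for H4K8ac, start sites by −7 to 1.5 and −0.5 to 0.5, and cover by −6.87 to 0.783 and −1.74 to 0.439 percentage points. The lowest H4K8ac values for listed genes and cover were those without the SIT arm, and with equal numbers of peaks they were −0.333 and −0.0278. Without the right separate arm the H3K27me3 differences turned, to 1.5 start sites and 0.783 percentage points of cover, and the H4K8ac cover difference turned to 0.439 points. Without the left separate arm the H4K8ac difference in listed genes turned to 0.5. The H4K8ac difference in start sites, 0 as reported, was −0.333 when a peak within 1 kb sufficed, −0.5 without the SIT arm and 0.5 without the right separate arm.

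Within arms, 52 of 60 alternatives kept the direction, counting differences of 0 that stayed at 0. For left separate the difference of 1 listed gene for H3K27me3 became −1 with promoter peaks alone and −1 with equal numbers of peaks by width, and the difference in cover became −0.0152 points within 10 kb and −0.0605 points with equal numbers. Equal numbers kept the widest peaks, to which most peaks over these start sites belong, so this setting says little of the length of a list. Without depth or signal in the lists, a missing peak cannot be told from one below the threshold of the peak caller.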
